A study of Mus musculus with 37 samples.

Results

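The hearts of Arrest mice 0.5 days after resuscitation were compared with those of Naïve mice, using 9 of the 37 RNA-seq libraries of the study, 4 from Arrest and 5 from Naïve. Libraries were chosen by their sample labels, and of the 56748 genes in the deposited table the 13339 with at least 0.5 FPKM in 4 or more of these 9 libraries were tested. FPKM is the number of sequenced fragments on a gene scaled to its length and to the size of the library. All mice were C57BL/6J of 8 to 10 weeks, of both sexes, and all received isoflurane. Arrest mice were in addition intubated, ventilated and injected with potassium chloride into the left ventricle, spent 8 min in asystole, and were resuscitated with chest compressions and 500 µL of adrenaline at 15 µg/mL. Naïve mice, labelled as having had no intervention, were neither intubated nor injected. The difference between these groups therefore covers the arrest, the chest compressions, the adrenaline, the ventilation and the injection together. It also covers 0.5 days of recovery and a repeat echocardiography, as Naïve mice were killed after their baseline imaging. Adr mice, which the labels call sham, received the same adrenaline with a saline injection and no potassium chloride, and are used where named. The tissue was left ventricle, the label being heart. The labels do not tie a library to an animal by name, so p-values measure the spread between these samples.

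Cardiac arrest stops perfusion of the whole body, and its reversal exposes the myocardium to ischaemia, reperfusion and a surge of catecholamines and adrenal steroids. Cytokines of the IL-6 family act through the receptors gp130 and OSMR on the transcription factor STAT3, which induces acute phase proteins and its own inhibitor SOCS3. Glucocorticoids act through the receptor encoded by Nr3c1 and induce genes such as Fkbp5 and the metallothioneins. Neutrophils and monocytes are the leukocytes that enter injured myocardium first.

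The libraries held 13431337 to 15697783 fragments on genes in Naïve and 14405271 to 21693388 in Arrest (exact two-sided permutation test, p = 0.119). Genes with a value above 0 numbered 13475 to 16925 in Naïve and 17081 to 20435 in Arrest (exact p = 0.00794, the smallest that its arrangements of 9 libraries allow), the lowest being Naïve replicate 4. That library also stood apart on the first principal component, at -54.2 against -9.719 to -5.996 in the other Naïve libraries. Genes of the mitochondrial genome took 25.2 to 30.9% of fragments in Naïve and 24.4 to 26.02% in Arrest (exact p = 0.0873). Heart muscle was plain in every library, with Myh6, the alpha myosin heavy chain, at 1439.5 to 1864 FPKM in Naïve and 1156 to 1547 in Arrest. The summed level of 8 lung markers did not exceed 3.55 FPKM in any library.

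Of the genes tested, 451 differed at an adjusted p of at most 0.05 (limma on log2(FPKM + 1), Benjamini-Hochberg adjustment), or 3.38%. Of these, 253 were higher in Arrest (1.9%) and 198 lower (1.48%), and before adjustment 2505 reached p values up to 0.05. A difference of at least 1 on this log2 scale was reached by 113 of the higher genes and 49 of the lower ones. Across all genes tested the median log2 difference was 0.02. The groups did not overlap at all in 245 of the 253 higher and 191 of the 198 lower genes, against 1260 of all genes tested (9.45%). The split of higher against lower depended on the scaling, with 232 against 308 under quantile normalization and 179 against 203 once each library's trend with gene length had been removed. Leaving out 1 library changed the count by over 1.5 times in 7 of 9 cases, with 256, 260, 294 and 264 genes without Naïve replicates 1, 2, 3 and 5, and 236, 203 and 253 without Arrest replicates 1, 2 and 4. The number that each library carries in its sample description was 99, 103, 104 and 124 in Arrest and 116 to 127 in Naïve. With it as a covariate 13 genes passed, 11 higher and 2 lower, and all 451 kept their sign. Of the 451, 431 had an unadjusted limma p of up to 0.05 with it. The log2 difference with the covariate, over that without it, had a median ratio of 0.9993 across the 451. Of the 110 genes of the function and cell type lists that passed, 56 to 93 did so when any 1 library was left out, and 4 with the number as a covariate. The part of this number in the differences was not tested further. The lists were written with earlier results of these data known, so a list's share of calls is no independent support for its function. Every count of calls in a list is to be read against the 3.38% called over all genes tested.

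**Figure D1:**
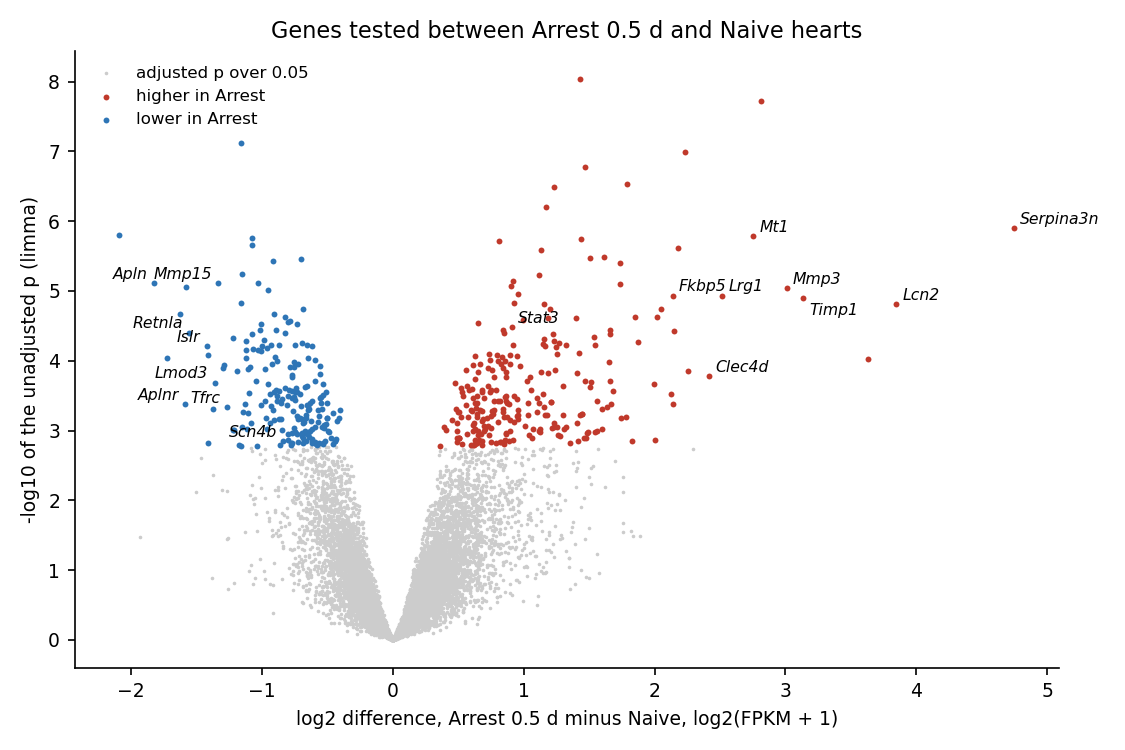
Each point is 1 of 13339 genes, with the log2 difference of Arrest 0.5 d minus Naïve on the x axis and -log10 of the unadjusted limma p on the y axis. Red points are the 253 genes higher in Arrest and blue points the 198 lower ones at an adjusted p of at most 0.05, and Serpina3n lies farthest to the right at 4.75.

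Secreted proteins of the acute phase response headed the rises. Serpina3n (ENSMUSG00000021091), a serine protease inhibitor, stood at 3.03, 1.49, 4.39, 18.9 and 2.45 FPKM in Naïve replicates 1 to 5 and at 104.8, 193, 111 and 160.1 FPKM in Arrest replicates 1 to 4. All Arrest libraries lay far above the highest Naïve library, which was replicate 4. The log2 difference was 4.75 (SE 0.50, limma adjusted p = 0.00183). Lcn2 (ENSMUSG00000026822), the siderophore-binding protein lipocalin 2, stood at 3.09, 1.08, 0.899, 3.42 and 0.227 FPKM in Naïve and 17.1, 68.9, 16 and 70.2 in Arrest, where replicates 2 and 4 lay well above replicates 1 and 3 (3.85, SE 0.53, adjusted p = 0.00506). Lrg1, a secreted leucine-rich glycoprotein of endothelium and liver, stood at 4.77, 8.18, 13.8, 8.25 and 7.39 FPKM in Naïve and 35.2, 73.3, 30.3 and 84.7 in Arrest, with the same 2 libraries highest (2.52, SE 0.33, adjusted p = 0.00432). Of 23 acute phase genes listed, 9 were expressed enough to be tested. Of these, 4 rose (Serpina3n, Lcn2, Itih4 and Il1r1) and none fell (44.4% called against 3.38% of all genes). The 9 had a median log2 difference of 0.70 against 0.02 for all genes. Il1r1, the receptor of IL-1, rose by 0.70 and lost its call in 7 of the 9 fits that leave out a library. Hp, haptoglobin, did not pass (0 to 0.879 FPKM in Naïve, 0.401 to 4.86 in Arrest, adjusted p = 0.0745). Saa3, serum amyloid A, was listed at 0 in all Naïve libraries and at 1.12, 1.27, 0.494 and 18.5 FPKM in Arrest, too low in 1 library for the filter. Lcn2 is also made by neutrophils, whose summed markers were higher in 3 of the 4 Arrest libraries than in any Naïve one, and the part of these cells in its rise was not tested.

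**Figure D2:**
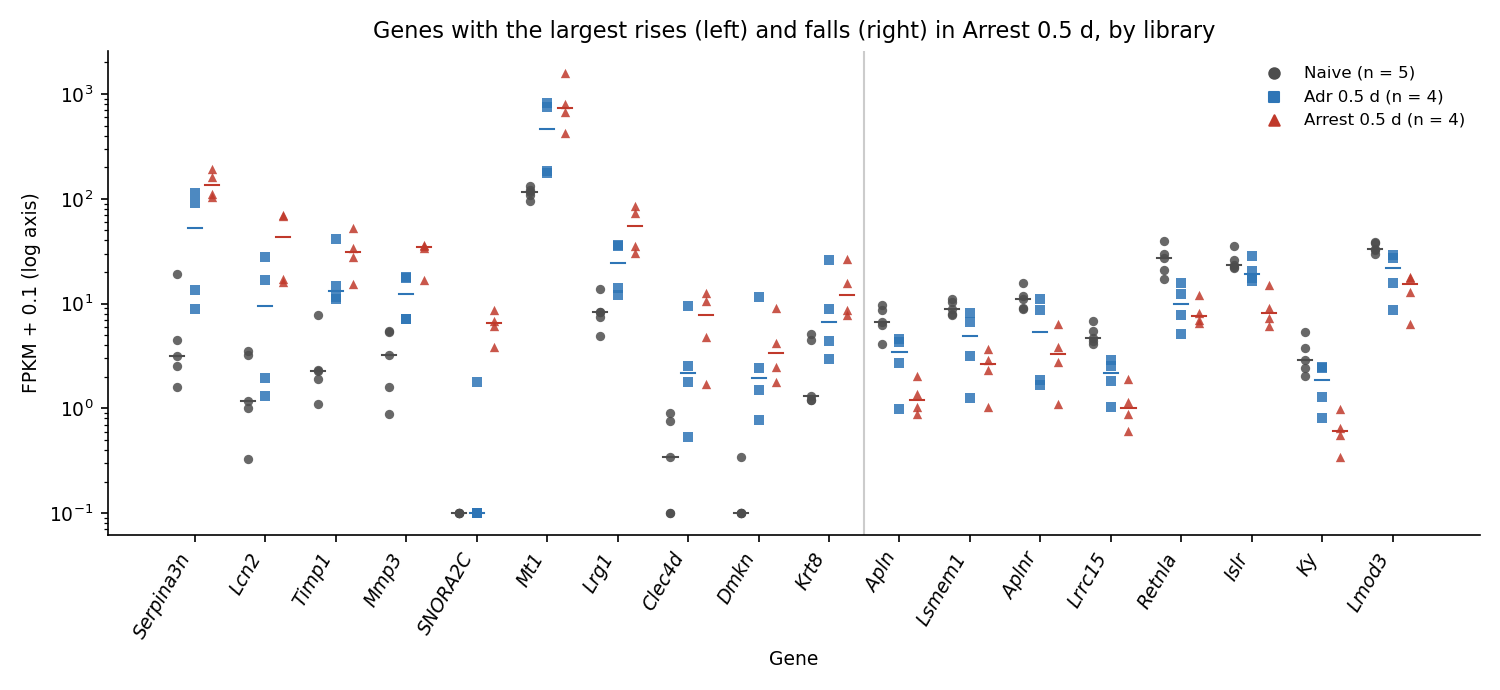
FPKM plus 0.1 on a log axis for 18 of the genes with the largest rises (left of the grey line) and falls (right), with 1 point per library and a bar at the group median. Arrest triangles lie beyond the Naïve circles in all 18 genes, as the rule for naming them requires, and the Adr 0.5 d squares lie between or overlap them, with Serpina3n in Adr spread from 8.84 to 115 FPKM.

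A receptor and several effectors of IL-6 family signalling rose. All 24 listed genes were tested, 7 were higher and none was lower (29.2% called against 3.38% of all genes, median 0.24), and 5 to 7 of the calls remained when any 1 library was left out. The share is no independent support, as the list was written with earlier results of these data known. Osmr, the oncostatin M receptor, stood at 2.04, 2.43, 1.8, 1.45 and 3.25 FPKM in Naïve and 6.78, 10.2, 7.75 and 10.2 in Arrest (1.62, SE 0.19, adjusted p = 0.00235). Stat3 itself stood at 13.2, 14.9, 11.8, 12.2 and 9.56 FPKM in Naïve and 21.4, 27.6, 22.2 and 24.8 in Arrest (0.91, SE 0.14, adjusted p = 0.00753). Its feedback inhibitor Socs3 stood at 1.81, 2.24, 1.95, 4.55 and 2.31 FPKM in Naïve and 10.2, 25.7, 11.7 and 10.03 in Arrest, with replicate 2 highest (2.05, SE 0.29, adjusted p = 0.00557). None of these 3 genes overlapped between the groups, which held for 9.45% of all genes tested and for 245 of the 253 higher genes. The transcription factors Cebpd (1.44) and Junb (1.64), the NF-kB cofactor Bcl3 (1.25) and the kinase Pim3 (0.86) were the other higher members. Pim3 lost its call in 7 of 9 fits that leave out a library and Junb in 2. The ligand Il6 was listed at 0 in all Naïve libraries and at 0, 4.04, 0 and 0.325 FPKM in Arrest, so that only replicate 2 held an appreciable level. No gene of the NF-kB pathway list passed (22 of 24 tested, median 0.03), with Nfkbia, its inhibitor, at 33.3 to 59.5 FPKM in Naïve and 30.6 to 89 in Arrest (adjusted p = 0.63). None of 12 tested interleukin and TNF family genes passed either. Bcl3 was counted in the IL-6 family list and not in that of NF-kB. Tnfrsf1a, the main TNF receptor, rose by 1.23 and was in no list.

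The Socs3 promoter is shown because Socs3 is the textbook target of STAT3 and rose here. The 250 bases before its start (chr11:117969367-117969616, minus strand, RefSeq, GRCm38.p6) hold 1 match of the STAT motif TTCNNNGAA, in capitals.
Socs3: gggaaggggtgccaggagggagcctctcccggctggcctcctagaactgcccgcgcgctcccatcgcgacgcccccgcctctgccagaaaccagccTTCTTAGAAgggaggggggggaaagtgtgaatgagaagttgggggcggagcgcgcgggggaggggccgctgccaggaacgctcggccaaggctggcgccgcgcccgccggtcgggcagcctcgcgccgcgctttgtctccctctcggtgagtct
The motif reads the same on both strands. It was present in 7.02% of the 32851 promoters of the table and in 678 of 9634 tested genes that matched it by symbol (7.04%). The share was 11 of 186 among higher genes (5.91%) and 12 of 151 among lower genes (7.95%).

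Genes known to be induced by glucocorticoids included several of the larger rises. The list of 24, written with earlier results of these data known, also holds the gene of the receptor itself, Nr3c1. Of its members 23 were tested, 10 were higher and 1 lower (47.8% called against 3.38% of all genes), and the median log2 difference was 0.89. Fkbp5, a co-chaperone of the glucocorticoid receptor, stood at 1.19, 1.1, 2.11, 2.18 and 0.824 FPKM in Naïve and 9.43, 17.7, 5.59 and 9.02 in Arrest (2.14, SE 0.28, adjusted p = 0.00432). Mt1, a metallothionein that binds zinc and copper, stood at 132, 119.9, 116, 95.9 and 108 FPKM in Naïve and 671, 1594, 421 and 797 in Arrest (2.76, SE 0.30, adjusted p = 0.00183). Both genes were highest in Arrest replicate 2 and lowest in Arrest replicate 3, which still lay above all Naïve libraries. Cdkn1a, the cell cycle inhibitor p21, stood at 14, 17.4, 17.8, 11.6 and 16.8 FPKM in Naïve and 57.2, 134.9, 39.9 and 57.9 in Arrest (2.02, SE 0.29, adjusted p = 0.00639). The kinase Map3k6 (1.66), Hsd11b1, which regenerates active glucocorticoid (1.51), the transcription factor Zbtb16 (1.44), Fam107a (1.35), the sulfotransferase Sult1a1 (0.92) and the arrestin-related Arrdc2 (0.89) also rose. Fam107a lost its call in 8, Arrdc2 in 7 and Zbtb16 in 5 of 9 fits that leave out a library. Nr3c1, the receptor, was the lower member, at 15.4, 13.3, 12.9, 15.2 and 13 FPKM in Naïve and 6.24, 7.34, 10.04 and 9.97 in Arrest (-0.69, SE 0.15, adjusted p = 0.0301). Its call was lost in 6 of 9 such fits. Some of these genes are counted elsewhere too, Lcn2 among the acute phase genes, Mt1 among the metallothioneins and Cdkn1a among the p53 targets. Other classical members did not pass, among them Tsc22d3 (30.2 to 44.3 against 38.3 to 55.6 FPKM, adjusted p = 0.425), Sgk1 (19.97 to 29.6 against 15.7 to 89.5, adjusted p = 0.447) and Pdk4 (79.9 to 174 against 77.5 to 644, adjusted p = 0.276). The list kept 7 to 10 of its 11 calls when any 1 library was left out, 7 without Naïve replicate 1, 3 or 5 or Arrest replicate 1 or 2.

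Mt1 was the only one of 14 tested metallothionein and zinc transport genes to pass, and its promoter is shown for the metal response core that metallothionein genes carry. Capitals mark the match of TGCACNC or TGCGCNC, searched on both strands, in the 250 bases before its start (chr8:94178839-94179088, plus strand, RefSeq, GRCm38.p6).
Mt1: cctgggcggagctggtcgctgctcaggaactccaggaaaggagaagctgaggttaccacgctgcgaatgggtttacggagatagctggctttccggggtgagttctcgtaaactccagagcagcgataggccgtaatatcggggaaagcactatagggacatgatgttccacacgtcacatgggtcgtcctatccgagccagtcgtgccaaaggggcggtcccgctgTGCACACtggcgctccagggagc
At least 1 such match lies in 21.4% of all promoters of the table, in 34.2% of the 9634 matched tested genes, in 21.5% of 186 higher genes and in 37.7% of 151 lower genes. Mt2, its neighbour, was listed at 0 in all Naïve libraries and at 1.94, 4.33, 0 and 0 FPKM in Arrest. Near-identical copies can share reads, so the division between metallothionein genes is uncertain.

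Matrix-degrading enzymes and their inhibitors changed in both directions. Of 25 tested of 27 listed, 5 were higher and 1 lower (24% called against 3.38% of all genes, median 0.27). Timp1, an inhibitor of metalloproteinases, stood at 7.7, 0.993, 1.8, 2.24 and 2.18 FPKM in Naïve and 15.2, 52.1, 27.5 and 33.8 in Arrest (3.13, SE 0.42, adjusted p = 0.00454). Mmp3, stromelysin 1, stood at 5.32, 1.5, 3.13, 0.776 and 5.28 FPKM in Naïve and 16.6, 36, 33.9 and 35.1 in Arrest, where replicate 1 was lowest (3.01, SE 0.39, adjusted p = 0.00376). The aggrecanase Adamts4 (1.46), Timp4 (1.31) and Serpine2 (0.63) also rose, each losing its call in 6 to 8 of 9 fits that leave out a library. Adamts4 did not exceed 0.364 FPKM in Naïve, so that it passed the filter only through Arrest. The membrane-type protease Mmp15 was lower, at 19.6, 22.3, 19.5, 17.4 and 16.2 FPKM in Naïve and 8.04, 4.48, 8.37 and 7.4 in Arrest (-1.33, SE 0.17, adjusted p = 0.00362). Among structural matrix genes the calls were falls. Collagens had 2 lower members of 21 tested (9.52% called), Col15a1 (-1.15) and Col14a1 (-1.04). Matricellular and myofibroblast genes had 3 lower of 26 (11.5%), Lrrc15 (-1.58), Fmod (-1.41) and Sparcl1 (-0.82). Col14a1 lost its call in 8 of 9 fits that leave out a library, and Col15a1 and Fmod in 7, whereas Lrrc15 and Sparcl1 kept theirs in all 9. Lrrc15, a marker of activated fibroblasts, stood at 5.42, 4.03, 4.6, 6.76 and 4.24 FPKM in Naïve and 0.78, 0.512, 1.04 and 1.8 in Arrest. The median of this last list was nonetheless above 0 (0.33), with 15 of 26 members positive. Islr, a gene of mesenchymal stromal cells, fell by 1.42 on the log2 scale (21.8 to 35.01 FPKM in Naïve, 6.06 to 14.8 in Arrest).

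Apelin and its receptor both fell. Apln (ENSMUSG00000037010), a vasodilator and inotropic peptide of endothelium, stood at 9.5, 6.1, 6.6, 8.66 and 4.04 FPKM in Naïve and 0.929, 1.28, 1.92 and 0.779 in Arrest (-1.82, SE 0.23, adjusted p = 0.00362). Aplnr (ENSMUSG00000044338) stood at 8.85, 10.9, 8.87, 15.7 and 11.8 FPKM in Naïve and 2.68, 1.01, 6.3 and 3.73 in Arrest (-1.58, SE 0.32, adjusted p = 0.0235) and lost its call without Naïve replicate 2, Naïve replicate 5 or Arrest replicate 1. Neither gene overlapped between the groups, as the rule for naming them requires. Of 30 angiogenic signalling genes, all tested, these 2 fell with Kdr, the main VEGF receptor (21.6 to 26.3 against 10.2 to 15.1 FPKM, -0.95), and Prox1, the lymphatic transcription factor (-0.93). Pgf, placental growth factor, rose by 1.60 (0.76 to 2.65 FPKM in Naïve, 3.44 to 11.8 in Arrest), and Vegfa did not pass (34.8 to 48.6 against 33.6 to 40.7, adjusted p = 0.634). In all, 16.7% of this list was called, against 3.38% of all genes. Prox1 and Pgf each lost their call in 5 of 9 fits that leave out a library. Of 21 tested genes of endothelial activation and coagulation 3 were higher and none lower (14.3% called, median 0.54). These were Lrg1, the anticoagulant receptor Thbd (0.88) and the sialomucin Emcn (0.60). Emcn lost its call in 7 of 9 fits that leave out a library and Thbd in 3. The adhesion molecules Selp (0 to 0.799 against 0.776 to 4.999 FPKM, adjusted p = 0.0669) and Icam1 (1.33 to 4.995 against 5.91 to 11.9, adjusted p = 0.0936) did not pass and were highest in Arrest replicate 2.

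Lmod3 and Ky are genes of striated muscle. Lmod3, which builds thin filaments, stood at 32.9, 38.7, 38, 32 and 29.8 FPKM in Naïve and 17.9, 6.25, 17.6 and 12.8 in Arrest (-1.36, SE 0.25, adjusted p = 0.0172). Ky, a protein of the sarcomere's Z-disc region in skeletal muscle, stood at 1.91 to 5.29 FPKM in Naïve and 0.241 to 0.886 in Arrest (-1.41), and Lsmem1 at 7.59 to 10.9 and 0.933 to 3.55 (-1.63). Tfrc, the transferrin receptor through which cells take up iron, stood at 11 to 21 FPKM in Naïve and 2.93 to 8.21 in Arrest (-1.27, SE 0.26, adjusted p = 0.0252) and lost its call in 4 of 9 fits that leave out a library. In the same list of 17 tested iron genes Lcn2 and Hmox1, which releases iron from haem, rose. Pdzd3 fell by 1.30 and Lrrc4b by 1.29. Among genes known only by a locus name, Gm32113 (-2.09), ENSMUSG00000120630 (-1.73) and ENSMUSG00000120028 (-1.37) fell, and Gm49326 (3.63), Gm49959 (2.25), Gm38317 (2.24) and ENSMUSG00000120878 (2.18) rose.

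The remaining named rises were mostly low in Naïve. SNORA2C, a small nucleolar RNA of 138 bases, was listed at 0 in all Naïve libraries and at 6.72, 6.001, 3.73 and 8.57 FPKM in Arrest, which is 13, 14, 8 and 27 fragments. Set against a floor of 3 fragments per Naïve library it was at least 4.10-fold higher. Gm38317, a processed pseudogene at 0 in all Naïve libraries, was at least 6.23-fold higher by the same floor, with 14 to 32 fragments per Arrest library. In all, 7 tested genes were at 0 in every Naïve library, and the filter could pass these only through Arrest. Dmkn, dermokine of epithelial cells, stood at 0 to 0.243 FPKM in Naïve and 1.67 to 8.87 in Arrest (2.15, SE 0.32, adjusted p = 0.008). Dmkn too passed the filter only through Arrest. Krt8, an epithelial and mesothelial keratin, stood at 1.09 to 5.06 FPKM in Naïve and 7.73 to 26.4 in Arrest (2.14, adjusted p = 0.0235) and lost its call in 4 of 9 fits that leave out a library.

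Ion channel genes that passed were lower. Of 22 sodium and potassium channel genes tested of 24 listed, 4 fell and none rose (18.2% called against 3.38% of all genes). A negative difference was seen in 21 (median -0.52, the lowest of the function lists with at least 5 members tested). Kcnip2, the subunit that carries the transient outward current with Kv4 channels, stood at 38.2, 44.1, 35.1, 35.2 and 34 FPKM in Naïve and 27.6, 20.9, 19 and 14.4 in Arrest (-0.87, SE 0.16, adjusted p = 0.0198). Abcc9, the SUR2 subunit of the ATP-sensitive potassium channel, fell by 1.01, Scn4b, a sodium channel beta subunit, by 0.84 and Kcnj3, of the muscarinic potassium channel, by 0.75. Scn4b and Kcnj3 each lost their call in 8 of 9 fits that leave out a library. Kcnd2, the Kv4.2 channel itself, had 3.01 to 5.86 FPKM in Naïve and 1.08 to 3.27 in Arrest and did not pass (adjusted p = 0.0825). Of 21 intercalated disc genes, Dsp, the desmoplakin of desmosomes, stood at 71.6, 79.5, 80.6, 78.8 and 79.8 FPKM in Naïve and 47.1, 47.9, 48.2 and 47.3 in Arrest (-0.70, SE 0.08, adjusted p = 0.00235), and Ctnna3 fell by 0.71. Of 23 calcium handling genes only Ryr2, the calcium release channel, passed (-0.49, lost in 7 of 9 such fits), and 4 passed under quantile normalization. The share called was 4.35%, near the 3.38% of all genes. The pump Atp2a2 had 1298 to 1668 FPKM in Naïve and 1150.3 to 1396 in Arrest (adjusted p = 0.181). In the cAMP pathway Akap6 (-0.80) and Adcy5 (-0.57) fell among 26 tested (7.69% called against 3.38% of all genes). Adcy5 lost its call in 6 of 9 fits that leave out a library. Sarcomere genes gave 1 call each way of 26 (7.69% called), with Mybpc3 lower (-0.55) and Pdlim5 higher (0.92).

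**Figure D3:**
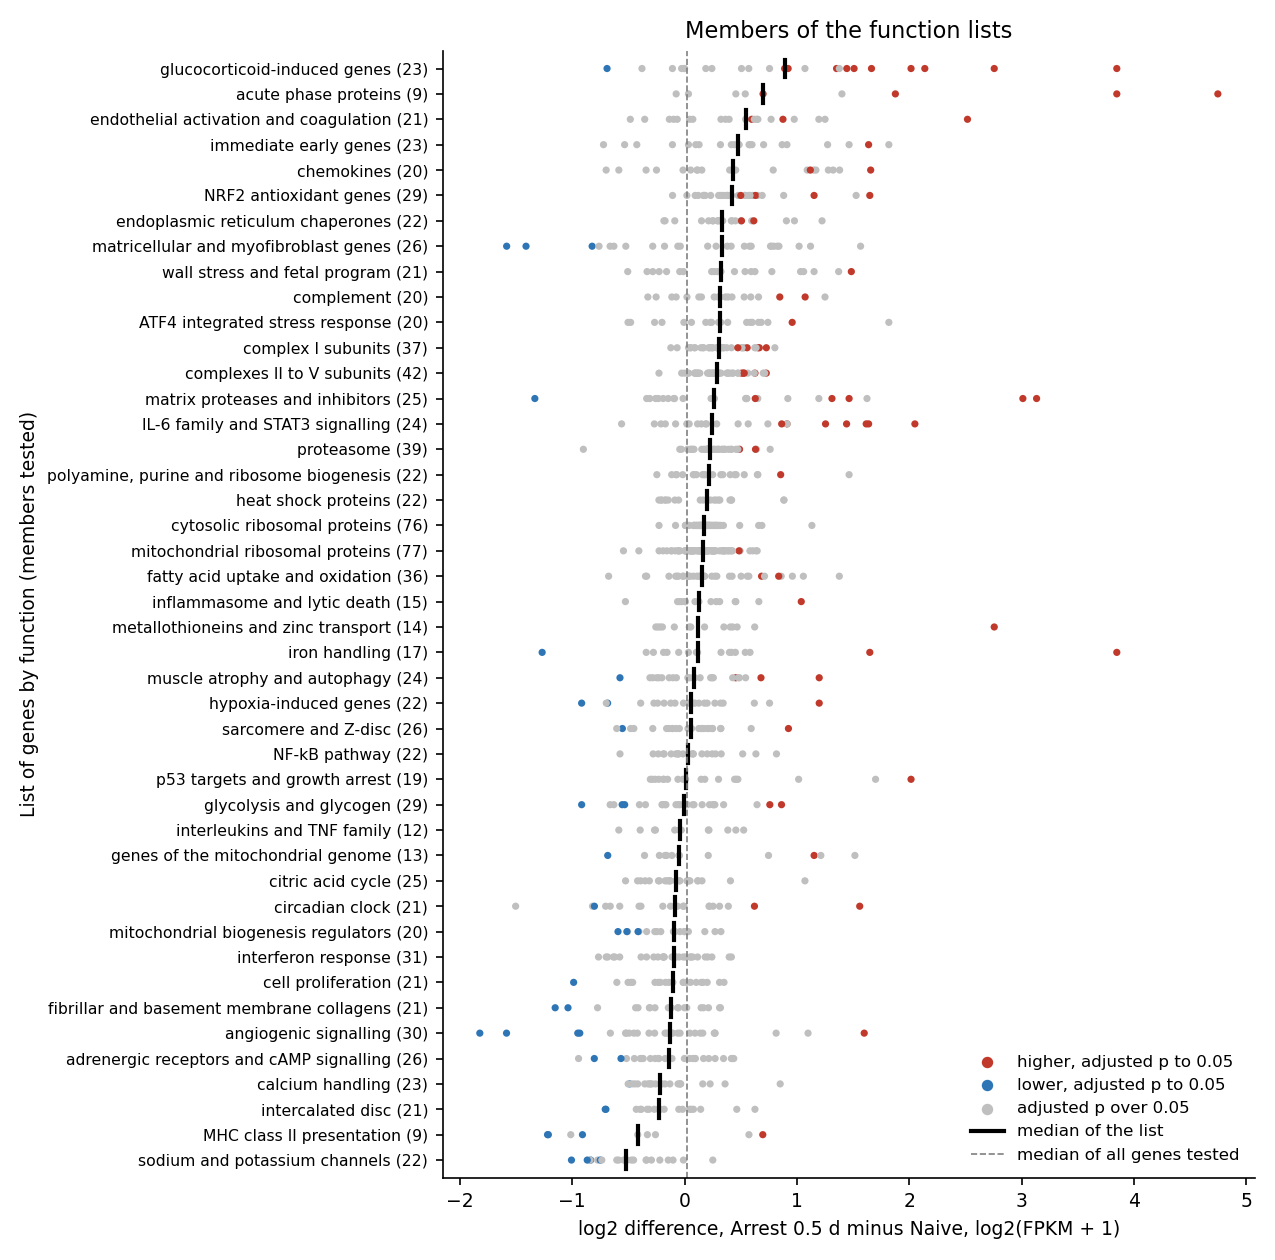
Each row is a list of genes by function with at least 5 members tested (number in brackets) and each point a member's log2 difference, Arrest 0.5 d minus Naïve, with members past the threshold in red (higher) or blue (lower). Black bars are list medians, from 0.89 for glucocorticoid-induced genes to -0.52 for sodium and potassium channels, and the dashed line is the median of all genes tested, 0.02.

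Respiratory chain subunits that passed were higher. Of 37 complex I subunits, all tested, 5 rose, none fell and 35 were positive (13.5% called against 3.38% of all genes, median 0.31). Ndufa7 stood at 96.6, 102, 113, 106 and 104 FPKM in Naïve and 182, 191, 158 and 133 in Arrest (0.65, SE 0.12, adjusted p = 0.0137). Ndufa11, Ndufb4, Ndufb5 and Ndufs4 rose by 0.73, 0.66, 0.56 and 0.47. Of 42 tested subunits of complexes II to V, 5 rose (Cox7b, Uqcr10, Atp5l, Cox7a2 and Cox4i1, by 0.51 to 0.73) and 40 were positive (11.9% called, median 0.29). Once the trend with gene length had been removed from each library, the medians were 0.18 and 0.16 and the calls 4 and 1. Under quantile normalization the medians were 0.12 and 0.08 and the calls 4 each. The complex I genes had a median length of 1569 bases against 4032 over all genes tested. Without Arrest replicate 2, 3 of the complex I calls remained, and without Arrest replicate 1 or 2, 1 of those of complexes II to V. Cytosolic ribosomal proteins, also short, gave no call among 76 tested, with a median of 0.18 that was 0.07 with the length trend removed and -0.0004 under quantile normalization. The citric acid cycle gave no call among 25 (median -0.07), but 5 under quantile normalization (median -0.23). Regulators of mitochondrial biogenesis and fusion gave 3 falls among 20, Esrrg (-0.59), Opa1 (-0.51) and Mfn2 (-0.41), which lost their calls in 7, 6 and 8 of 9 fits that leave out a library. In the mitochondrial genome mt-Co2 was higher (628 to 975.3 FPKM against 1407 to 2079, 1.15) and mt-Nd5 lower (-0.68, lost in all 9 fits that leave out a library) among 13.

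Fuel genes were mixed. Hk2, the muscle hexokinase, stood at 40.5, 37.3, 40.7, 43.8 and 33.9 FPKM in Naïve and 20.1, 22.3, 20.9 and 17.9 in Arrest (-0.92, SE 0.11, adjusted p = 0.00239). Slc2a4, the insulin-responsive glucose transporter, and Pygb, a glycogen phosphorylase, also fell (-0.53 and -0.56), whereas Pgam1 and Phka1 rose (0.76 and 0.86). All of them were among 29 genes of glycolysis and glycogen (17.2% called), where quantile normalization gave 8 calls. Slc2a4 lost its call in 8 of 9 fits that leave out a library, whereas Hk2, Pygb, Pgam1 and Phka1 kept theirs in all 9. Fatty acid genes gave 2 rises among 36 (5.56%, near the share of all genes), the transporter Cd36 (0.69) and the triglyceride lipase Pnpla2 (0.84). Among 22 hypoxia-induced genes tested (13.6% called), Bnip3, of mitophagy, rose by 1.20 (44.2 to 58.8 FPKM in Naïve, 84.2 to 144.8 in Arrest), and Egln3 fell with Hk2 (-0.68). Egln3 lost its call in 7 of 9 fits that leave out a library.

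Targets of NRF2, a transcription factor of the oxidant response, had 4 higher and none lower of 29 tested (13.8% called against 3.38% of all genes). Of the 29, 28 were positive (median 0.42, 0.35 with the length trend removed). Hmox1, haem oxygenase 1, stood at 6.17, 4.82, 7.69, 7.48 and 8.66 FPKM in Naïve and 20.4, 47.8, 16.1 and 19.4 in Arrest (1.65, SE 0.28, adjusted p = 0.0118), and Gclm, Gpx4 and Prdx1 rose by 1.15, 0.63 and 0.50. Without Arrest replicate 2 only Hmox1 of these 4 passed. Srxn1, sulfiredoxin, did not pass (45.2, 35.6, 11.2 and 11.9 FPKM in Arrest, 3.57 to 8.88 in Naïve, adjusted p = 0.0679). Xbp1 (0.62) and Herpud1 (0.51) rose among 22 genes of endoplasmic reticulum stress (9.09% called). Slc3a2 (0.96) rose among 20 of the ATF4 response (5%, near the 3.38% of all genes). Herpud1 lost its call in 6 and Slc3a2 in 5 of 9 fits that leave out a library. No heat shock gene passed among 22. Psma6 (0.63) and Psma1 (0.49) rose among 39 proteasome genes (5.13% called, near the 3.38% of all genes), Psma1 losing its call in 8 of 9 fits that leave out a library. Trim63, the muscle ubiquitin ligase MuRF1, fell (-0.57), while Fbxo31 and Map1lc3b rose with Bnip3 among 24 genes of atrophy and autophagy (16.7% called). Trim63, Fbxo31 and Map1lc3b each lost their call in 7 of 9 fits that leave out a library. Nppb, the B-type natriuretic peptide of wall stress, stood at 376, 278, 311, 534 and 192 FPKM in Naïve and 872, 1780.0, 655 and 631 in Arrest (1.48, SE 0.34, adjusted p = 0.0382) and lost its call in 7 of 9 fits that leave out a library. In the circadian clock list Nfil3 (1.56) and Arntl (0.62) rose and Tef (-0.80) fell, each losing its call in 7 of 9 such fits, while Dbp (3.46, 15.5, 14, 10.7 and 2.41 FPKM in Naïve, 3.53, 1.48, 1.61 and 1.73 in Arrest, adjusted p = 0.107) did not pass. The hour of tissue collection was not given in the sources used here. Naïve tissue was taken after baseline imaging and Arrest tissue 0.5 days after the procedure, and the part of this interval was not tested. Other lists with 1 call were cell proliferation (4.76% called), with Ccnd2 lower (-0.99), and lytic cell death (6.67%), with Ninj1 higher (1.04). The same held for polyamine and ribosome biogenesis (4.55%), with Srm higher (0.86), and mitochondrial ribosomal proteins (1.3%), with Mrpl33 higher (0.48). Over all genes tested the share was 3.38%, so these counts are no result about the lists. Ninj1 lost its call in 5, Srm in 8 and Mrpl33 in 7 of 9 fits that leave out a library.

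Immune lists held calls in both directions. Of 20 chemokines tested, 2 rose (10% against 3.38% of all genes). Ccl6 stood at 22.5, 21.3, 27.2, 31.5 and 17.1 FPKM in Naïve and 59.8, 125.6, 51.3 and 86.4 in Arrest (1.66, SE 0.25, adjusted p = 0.00806) and Cxcl14 rose by 1.12. Ccl2, which recruits monocytes, did not pass (1.29 to 4.08 against 3.07 to 14.9 FPKM, adjusted p = 0.0646). Cfp, properdin of the complement system, rose by 1.07 and lost its call in 7 of 9 fits that leave out a library. Cxcl14 lost its call in 5. No interferon response gene passed among 31 (median -0.10). Of 9 tested genes of MHC class II presentation 4 passed (44.4% against 3.38% of all genes). The 3 that fell were H2-Aa (-1.22), H2-Eb1 (-1.21) and the invariant chain Cd74 (-0.91), and the protease Ctss rose (0.70). H2-Aa stood at 24.99, 45.6, 23.7, 34.97 and 29.2 FPKM in Naïve and 10.4, 10.5, 24.5 and 9.43 in Arrest, so that Arrest replicate 3 lay within the Naïve range while the other 3 lay below it. The 3 falls each lost their call in 7 or 8 of 9 fits that leave out a library.

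Markers of cell types were summed in each library, and in whole tissue fewer cells of a type and less RNA per cell cannot be told apart. Of 19 neutrophil markers 7 were tested, and Clec4d and S100a8 rose. Clec4d, a C-type lectin of myeloid cells, stood at 0.24, 0, 0.809, 0 and 0.651 FPKM in Naïve and 10.6, 12.5, 1.61 and 4.66 in Arrest (2.42, SE 0.43, adjusted p = 0.0151). S100a8, a calcium-binding protein of myeloid cells, stood at 0.645, 1.54, 0, 0 and 0.643 and 5.45, 11.8, 1.02 and 6.25 FPKM (2.01), with overlap, and lost its call in 8 of 9 fits that leave out a library. Its partner S100a9 did not pass (0 to 8.2 against 1.6 to 13.6 FPKM, adjusted p = 0.385). The summed neutrophil level was 0.691 to 12.9 FPKM in Naïve and 8.28 to 52.8 in Arrest, where replicate 3 lay within the Naïve range. Ly6g, which defines mouse neutrophils, was at 0 in all 9 libraries, and Mpo reached 0.02 FPKM in 1. Retnlg, of mature neutrophils, was listed at 0 in all Naïve libraries and at 1.08, 4.89, 0 and 3.99 FPKM in Arrest. The inflammatory monocyte sum was 193 to 244 FPKM in Naïve and 269.9 to 404 in Arrest, without overlap, and none of its 8 tested genes passed. Of 15 resident macrophage genes, Cd163, a scavenger receptor, rose by 1.06 and Retnla, of alternatively activated macrophages, fell (17 to 39.1 FPKM in Naïve, 6.44 to 11.8 in Arrest, log2 difference -1.56, SE 0.24, adjusted p = 0.00806). Lyve1 of the same cells did not pass (adjusted p = 0.0618).

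The endothelial sum was 739.8 to 787 FPKM in Naïve and 933 to 1587 in Arrest, without overlap. Within this list Ly6c1 stood at 75.6, 88.8, 98.6, 76.9 and 83.2 FPKM in Naïve and 278, 259.6, 199 and 212 in Arrest (1.47, SE 0.13, adjusted p = 0.000453), Emcn rose and Kdr fell, while the junctional markers Cdh5 (-0.37, adjusted p = 0.0601) and Pecam1 (0.41, adjusted p = 0.21) did not pass. Under quantile normalization Cdh5 passed as lower (-0.48, limma adjusted p = 0.0248). Ly6c1 is itself counted in the endothelial sum, so the higher sum does not stand for endothelial markers in general. The part of Ly6c1 and of the other genes that rose in this higher sum was not tested. The sums of cardiomyocyte (20740.0 to 25735 against 18720.0 to 28953 FPKM) and fibroblast markers (876 to 1078 against 816 to 1045) overlapped, with 1 call (Ryr2) and no call among 12 tested genes each. Pericytes gave 1 fall, Abcc9, of 9, and smooth muscle none of 9. Red cell markers gave no call among 7 (sum 1710.3 to 3964 against 1554 to 2107 FPKM). The smaller lists of endocardium, dendritic, T, B, NK and mast cells, platelets, fat, Schwann cells, conduction system, liver, skeletal muscle and thymus gave no call. Mesothelium (Krt8), lymphatic endothelium (Prox1) and atrium (Kcnj3) gave 1 each.

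**Figure D4:**
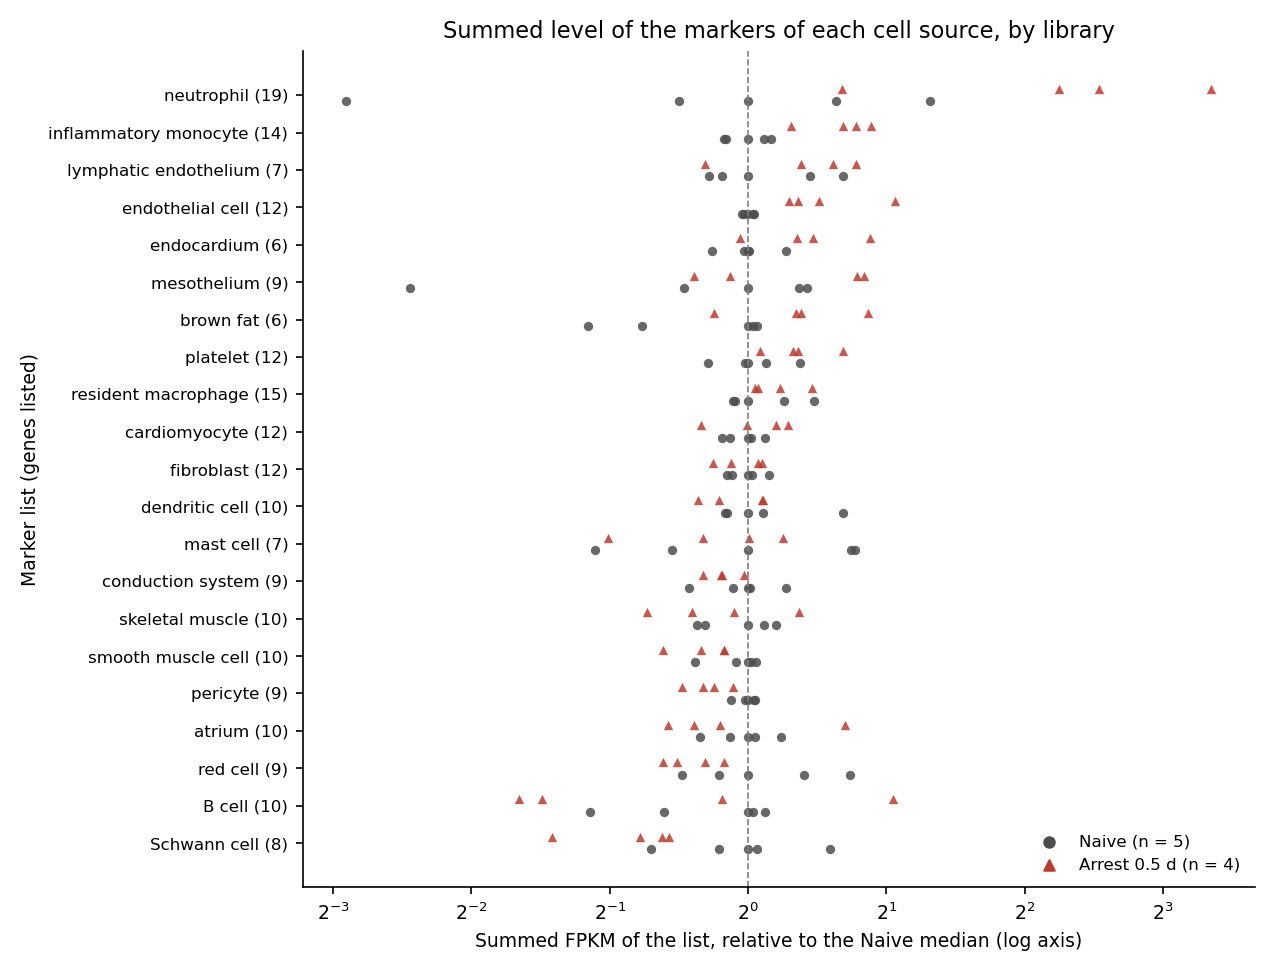
Summed FPKM of each marker list with at least 3 genes tested, in each library, relative to the Naïve median on a log axis (grey circles Naïve, red triangles Arrest 0.5 d). Neutrophil sums in Arrest reach 52.8 FPKM against 12.9 FPKM in Naïve with replicate 3 inside the Naïve range, and the endothelial and inflammatory monocyte sums do not overlap between the groups.

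The 4 Arrest hearts differed among themselves by function. Replicate 2 was the highest Arrest library in 140 of the 253 higher genes and in 22 of 23 immediate early genes. There Atf3 stood at 29.5, 218, 19.4 and 78.5 FPKM (Naïve 3.04 to 28) and Fos at 4.98, 35.6, 0.739 and 15.2 (Naïve 2.28 to 7.62), so that only replicates 2 and 4 exceeded the Naïve range in both. Of the 23 genes only Junb passed. Replicate 2 was also highest in 16 of 21 wall stress genes, among them Ankrd1 (111, 478, 117 and 261 FPKM) and Xirp1 (27, 124, 21.1 and 29.5 FPKM), in 16 of 23 glucocorticoid-induced genes and in 15 of 21 genes of endothelial activation. Replicate 1 was highest in 30 of 37 complex I subunits, 35 of 42 subunits of complexes II to V and 25 of 29 NRF2 targets. That library also had the steepest trend with gene length (Spearman correlation -0.396, described below). These lists have median lengths of 1569, 1793.5 and 2754 bases, against 4032 over all genes tested. The part of gene length in these counts was not tested. Replicate 3 was highest in 25 of 31 interferon response genes and 16 of 22 endoplasmic reticulum chaperones, and lowest for Mt1 and Fkbp5. Over all genes tested the 4 libraries were highest in 3367, 3742, 3267 and 2963 genes. These counts describe single libraries, and genes of 1 list are not independent.

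The differences followed gene length. In each library the log2 ratio of each gene to the mean of the 9 libraries was correlated with gene length over 11442 genes with a mean of at least 1 FPKM. The Spearman correlations were 0.197, 0.105, 0.061, 0.016 and 0.185 in Naïve replicates 1 to 5 and -0.396, -0.144, -0.156 and 0.083 in Arrest replicates 1 to 4. The Arrest mean was lower by 0.27 (-0.153 ± 0.196, SD, n = 4, against 0.113 ± 0.0780, SD, n = 5, exact two-sided permutation test, p = 0.0317), although Arrest replicate 4 lay within the Naïve range. It was -0.19 without Arrest replicate 1 and -0.34 without Arrest replicate 4, and p exceeded 0.05 in 8 of 9 cases that leave out a library. Among the 2861 shortest genes (57 to 2369 bases) the median log2 difference was 0.17, with 107 higher and 23 lower calls, and among the 2861 longest (6449 to 117334 bases) it was -0.07, with 21 higher and 72 lower. Higher genes had a median length of 2475 bases, lower genes 5192 and all genes tested 4032. Across genes, which are not independent, the correlation of the log2 difference with length was -0.268, and it lay between -0.31 and -0.218 in each of 4 classes of genes by level. It was -0.274 over 10346 nuclear protein-coding genes. After the trend had been removed 382 genes passed, 342 of them shared with the 451, and all 30 genes named for their size kept their call.

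**Figure D5:**
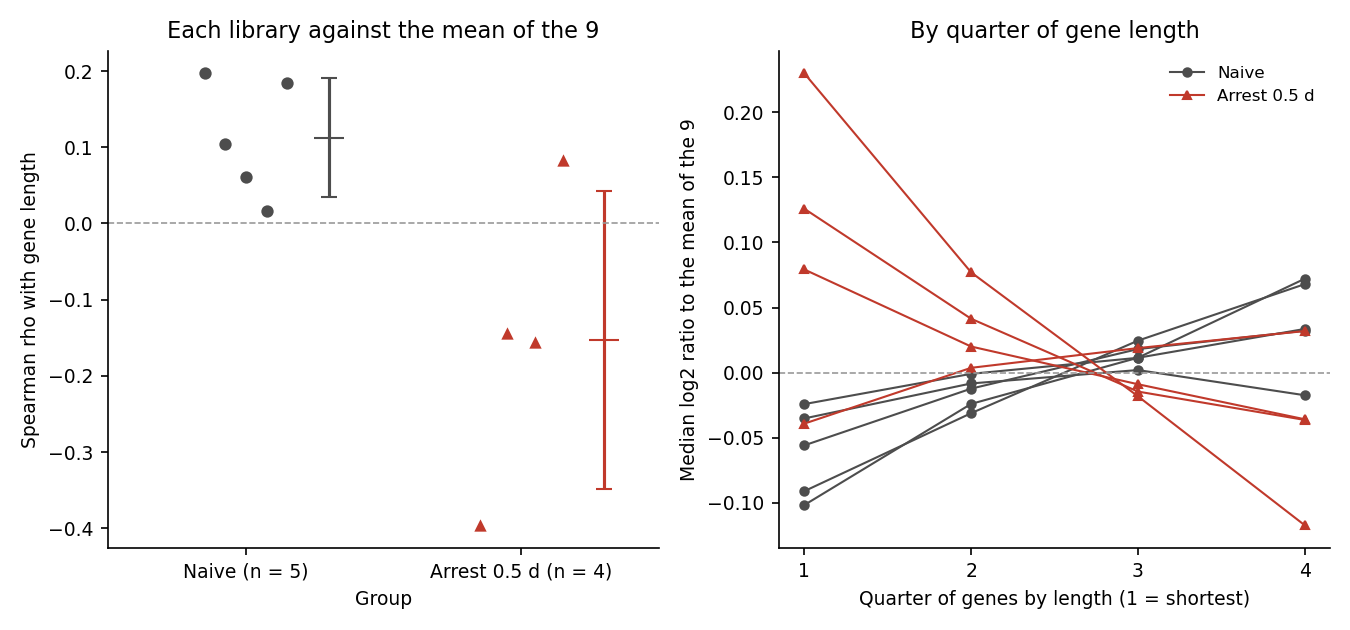
Left, Spearman correlation of each library's log2 ratio to the mean of the 9 libraries with gene length, 1 point per library, with the mean and SD beside the points. Right, the median ratio in each of 4 equal classes of genes by length, from the shortest (1) to the longest (4), where 3 of the 4 Arrest lines fall from left to right and Arrest replicate 4 rises with the Naïve lines.

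Against Adr mice at the same time, which share the adrenaline, the ventilation and an injection, no gene passed (0 of 13339, 0%, limma, 4 against 4 libraries), the smallest adjusted p was 0.353, and 898 genes were at an unadjusted p of up to 0.05. The 4 Arrest libraries are the same in this and the Naïve comparison. The genes below were named because those libraries lay beyond the Naïve ones, so their unadjusted intervals against Adr are no independent support. Serpina3n stood at 8.84, 13.3, 114.6 and 91.7 FPKM in Adr replicates 1 to 4, so that replicates 3 and 4 were near the Arrest level and replicates 1 and 2 near the Naïve one (Arrest minus Adr 1.99, 95% interval 0.34 to 3.64, adjusted p = 0.679). Lcn2 (1.2, 1.84, 27.6 and 16.8 FPKM), Mt1 (183, 176, 822 and 749) and Fkbp5 (3.71, 2.05, 18.5 and 17.5) split in the same way. The log2 difference from Adr was 0.33 for Fkbp5 (SE 0.59) and 1.04 for Mt1 (SE 0.58, 95% interval -0.26 to 2.34). Mmp3 was lower in every Adr library than in Arrest replicates 2 to 4 (7.07, 7.02, 17.3 and 17.7 FPKM, interval 0.52 to 2.09, adjusted p = 0.659). Islr was higher in every Adr library than in any Arrest library (20.3, 28.4, 17.4 and 16.4 FPKM, interval -1.69 to -0.55, adjusted p = 0.659). SNORA2C, which passed the filter only through Arrest, was at 0 in 3 Adr libraries and at 1.68 FPKM in the other (interval 1.70 to 3.22, adjusted p = 0.353). Aplnr (8.63, 10.9, 1.57 and 1.77 FPKM) covered both the Naïve and the Arrest levels.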

How the data were processed

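RNA from mouse left ventricle was sequenced as paired reads. The authors checked the reads with FastQC and aligned them with HISAT2, and deposited 1 table of FPKM values per gene and library. The genome build, annotation, counting tool and strand setting were not given in the sources used here, so genes are given by identifier without coordinates. Samples were grouped by their labels, and 0 columns of sample values were left unmapped. FPKM times gene length was a whole multiple of 1 step per library for 100% of values (tolerance 0.01 of a step), which gave back the fragments per gene, and voom on these called 634 genes. Values were analysed as log2(FPKM + 1), which understates the change of low genes, over genes with at least 0.5 FPKM in 4 of the 9 libraries. The 9 Arrest and Naïve libraries were fitted with limma 3.58.1 (R 4.3.3) with a mean-variance trend and Benjamini-Hochberg adjustment at 0.05. Single values per library were compared by an exact two-sided permutation test (Python 3.11.15). The FPKM scale was used as deposited, and the length trend was removed, as an alternative, by a smooth curve of each library's ratio on log2 length.

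Genes are named as the 15 largest rises and 15 largest falls that did not overlap and whose mean reached 1 FPKM in either group, and as up to 4 called members of each list. Further members, including those that did not pass, were chosen after their values were seen. The 71 lists of function and cell type and the choice of libraries were made with earlier results of these data known. No 2 libraries of a group were copies of each other (lowest chi-square per gene 17.3 in 16 pairs). The steps were tested on simulated data. Alternatives were other scalings, filters, pseudocounts, covariates and fits, and leaving out each library. Promoter sequences are RefSeq's on GRCm38.p6, matched by symbol. A called gene of the lists is not reported here.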

Additional observations from a re-analysis of the deposited data

Results flagged for a closer look

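In 230 groups of 4 or 5 libraries, 22 had 1 library farther from the rest than Dixon's 95% limit. Chance gives about 1 in 20 groups for unselected, normally distributed values. Most of these genes were chosen from the same libraries. For Gm49326, Gm49959, Dmkn and Adamts4 all Naïve libraries but 1 were at 0, which fixes the outcome. The count is therefore not to be compared with that rate. Arrest replicate 2 gave 6 of these, the most of any library. It lay above the other Arrest libraries for Socs3 (25.7 FPKM), Junb (62.6 FPKM), Nfil3 (58.9 FPKM) and Phka1 (16.01 FPKM), and below them for Gm49326 (6.10 FPKM) and Cfp (6.92 FPKM). Arrest replicate 1 was low for the protease gene Mmp3 (16.6 FPKM), and Arrest replicate 3 was high for the MHC class II gene H2-Aa (24.5 FPKM). Arrest replicate 4 was low for the endothelial gene Emcn (17.6 FPKM) and high for the mitochondrial fusion gene Opa1 (20.3 FPKM).

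Naïve replicate 3 gave 4 such values, all high, for Dmkn (0.243 FPKM), Adamts4 (0.364 FPKM), Pnpla2 (116 FPKM) and Pgf (2.65 FPKM). Dmkn and Adamts4 were at 0 in the other Naïve libraries. Naïve replicate 2 was high for Gm49959 (1.98 FPKM) and low for Scn4b (4.49 FPKM) and Opa1 (21.3 FPKM), so that its Scn4b level lay close to the 3.25 to 4.41 FPKM of Arrest. Naïve replicate 4 was high for Socs3 (4.55 FPKM) and had the fewest genes above 0 (13475). Naïve replicate 5 was high for Gm49326 (5.90 FPKM, all other Naïve libraries being at 0) and low for Xbp1 (25.2 FPKM). Naïve replicate 1 was low for Dsp (71.6 FPKM).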

How the results depend on the processing

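The 451 calls became 277 without a filter on low values, where 24812 genes were tested, 985 when all libraries but Adr 3 d replicate 3 shared 1 estimate of the spread, 13 with the number in the sample description as a covariate, and 203 to 505 when 1 library was left out (505 without Naïve replicate 4, 203 without Arrest replicate 2). Counts of 362 to 634 came from 11 other settings of scaling, filter, pseudocount, length, sex, weights and model. All 451 genes kept their sign under every setting in which they were tested. Of the 30 genes named for their size, 26 to 30 kept their call when 1 library was left out, 24 under voom and 26 without a filter. With the number as a covariate 6 kept it (Serpina3n, Lcn2, Lrg1, Dmkn, SNORA2C and Gm38317). Dmkn, SNORA2C and Gm38317 passed the filter only through Arrest. In Naïve, SNORA2C and Gm38317 were at 0 in all libraries and Dmkn reached at most 0.243 FPKM. With the number as a covariate, the log2 differences of the 451 genes were at the median 0.9993 times those of the main fit. For the 110 called genes of the lists they were 0.586 to 1.36 times those. Why the number removes most calls was not tested. It spans 99 to 124 in Arrest and 116 to 127 in Naïve, so that the 2 groups overlap in it through Arrest replicate 4 alone.

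A replicate block left 27 genes. Same-numbered libraries had correlations of their deviations of -0.0995, -0.0122, 0.003 and -0.107, so the numbers do not pair the samples. No Arrest library correlated best with the Naïve library of its own number.

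The length correlation difference of -0.266 (exact p = 0.0317) was -0.341 to -0.19 when 1 library was left out, with exact p of up to 0.0857, and 0.0045 (exact p = 0.794) with the length trend removed, an alternative that removes it by construction and was added after the data had been seen. The filter at 0.5 FPKM leaves most neutrophil markers untested.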

Other observations

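Of the genes that passed, 326 were in none of the lists and not among the 30 largest changes, 174 higher and 152 lower. Those with the smallest p among them, chosen after their values were seen, were receptors, enzymes and muscle genes with narrow spreads. Ly6a, a surface protein of endothelium and stromal progenitors, stood at 101 ± 7.58 FPKM in Naïve (SD, n = 5) and 274 ± 18 in Arrest (SD, n = 4), a log2 difference of 1.43 (limma adjusted p = 0.000121). It is a neighbour in family to Ly6c1, and reads shared between Ly6 genes could be split between them by the counting. Tnfrsf1a, the main TNF receptor, stood at 17.9 ± 2.48 and 43.1 ± 2.002 FPKM (1.23, adjusted p = 0.000607) and Il4ra, the receptor chain of IL-4 and IL-13, at 2.97 ± 0.562 and 12.8 ± 2.76 FPKM (1.79, adjusted p = 0.000607). Lgals3, galectin 3 of macrophages, rose by 1.74, Sbno2, a gene downstream of STAT3, by 1.504, and the enzymes Xdh, xanthine dehydrogenase, Msrb1, a methionine sulfoxide reductase, and Acot13, a thioesterase, by 1.12, 1.17 and 0.81.

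Falls in this set included Lrtm1 (55.7 ± 2.86 FPKM in Naïve, 24.4 ± 1.85 in Arrest, -1.16, adjusted p = 0.000339), the kinase gene Mylk4 (-1.15), Cyfip2, of the actin-regulating WAVE complex (-1.08), and the proprotein convertase Pcsk6 (-1.03). The 20 genes of this set with the smallest p and a symbol of their own each kept their call in all 9 fits that leave out a library. Their choice by p in the same libraries favours this. With the number in the sample description as a covariate, 4 of them (Ly6a, Lrtm1, Tnfrsf1a and Xdh) kept their call.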
